A study of Homo sapiens with 12 samples.

Results

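The YAP and TEAD pathway genes described here are 10 of the 35238 rows of a gene expression table from HK-2 cells, an established line from human kidney proximal tubule. They are the coactivators YAP1 and WWTR1 (the gene for TAZ), the DNA-binding partners TEAD1 and TEAD4, the target genes CTGF, CYR61 and ANKRD1, and AMOTL2, LATS2 and AJUBA, which act on the pathway. The set was chosen by measured values as well as by pathway: it was selected on the lower ANKRD1 level of knockdown cells under AAI. Values of the members in that contrast are therefore given as a description with no test. The table held 4 groups of 3 libraries, and every library came from cells given 10 nM of a short interfering RNA, either scrambled (SCR) or directed against POLR2A (siB). For 24 hours the cells also received aristolochic acid I (AAI), a nephrotoxin from plants that forms DNA adducts, at 25 µM, or an equal volume of its solvent, DMSO. POLR2A encodes RPB1, the catalytic subunit of RNA polymerase II. The knockdown was transient, used a single siRNA and was partial. That the 3 libraries of a group came from separate cultures was not stated, so p-values measure only the spread between these libraries.

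In the Hippo pathway, a kinase cascade ending in LATS1 and LATS2 phosphorylates YAP and TAZ, which holds them in the cytoplasm or marks them for degradation. When the cascade is off, YAP and TAZ enter the nucleus and bind TEAD proteins at DNA sites read as GGAATG, where they switch on genes such as CTGF, CYR61 and ANKRD1. Several targets feed back on the pathway: AMOTL2 and LATS2 restrain YAP, while AJUBA holds LATS kinases in check. In the kidney tubule, YAP activity is known for its part in repair and fibrosis after injury. Because most of this control acts on the proteins, messenger RNA levels report the supply of the components and the output of the targets, not the amount of active YAP.

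The promoters of CTGF and ANKRD1 are shown because the 2 genes are textbook TEAD targets whose levels are compared with each other below. Each run is the 250 bases before the start site, read 5′ to 3′ from the RefSeq table on GRCh38.p14, with each GGAATG in capitals. The ANKRD1 run is chr10:90921088-90921337 and the CTGF run chr6:131951373-131951622, both on the minus strand.
ANKRD1: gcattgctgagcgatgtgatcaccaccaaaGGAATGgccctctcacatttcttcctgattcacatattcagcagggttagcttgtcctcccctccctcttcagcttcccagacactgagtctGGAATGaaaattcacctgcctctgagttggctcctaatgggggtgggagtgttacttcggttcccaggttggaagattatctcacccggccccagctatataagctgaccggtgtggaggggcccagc
CTGF: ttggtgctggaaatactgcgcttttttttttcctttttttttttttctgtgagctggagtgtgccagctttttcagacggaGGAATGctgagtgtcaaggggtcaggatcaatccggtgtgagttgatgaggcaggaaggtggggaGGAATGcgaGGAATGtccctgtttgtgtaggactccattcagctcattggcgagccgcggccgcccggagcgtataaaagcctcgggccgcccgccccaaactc
ANKRD1 held 2 matches, whose first bases lay at positions -220 and -128 from the start, and CTGF held 3, at -169, -104 and -95. In windows of 300 bases (250 before to 50 after the start), searched on both strands, GGAATG was present in 14% of 35116 promoters and present at least 2 times in 1.37%. The table held windows for 7 of the 10 members, 10 windows in all, and 6 members had a match in at least 1 window: CTGF, ANKRD1, YAP1, AMOTL2, LATS2 and AJUBA. WWTR1 had none in its 2 windows. TEAD1, TEAD4 and CYR61 had no entry. The ANKRD1 window also held the AP-1 letters TGANTCA once, a motif found in 7.71% of promoters and not overlapping GGAATG. A match is a run of letters and was not tested as a binding site.

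On hg38 (GENCODE 44) the members differed widely in length. TEAD1 (chr11:12674421-12944737), WWTR1 (chr3:149517235-149736714) and YAP1 (chr11:102110447-102233424) span 270, 219 and 123 kb. LATS2 (chr13:20973036-21061586) and TEAD4 (chr12:2959330-3040676) span 88.6 and 81.3 kb. The other 5 are short: AMOTL2 (chr3:134355347-134375479), AJUBA (chr14:22971177-22982551), ANKRD1 (chr10:90912096-90921087), CYR61 (now CCN1, chr1:85580761-85584589) and CTGF (now CCN2, chr6:131948176-131951372) span 20.1, 11.4, 8.99, 3.83 and 3.20 kb. CYR61, ANKRD1 and TEAD4 overlap no other annotated gene. YAP1, WWTR1, TEAD1, AMOTL2, LATS2 and AJUBA each overlap 1 to 4 other annotated genes. CTGF overlaps the antisense transcript LINC01013, and whether the reads were counted by strand was not stated, so reads of the 2 cannot be told apart.

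Depth lay between 15844015 and 42805294 reads per library. Levels are counts per 1000000 reads (CPM), recovered from the deposited log10 values. SCR DMSO replicate 2 stood apart from its group on the second principal component, at -62.2 against 57.8 and 20.03. It was also the deepest library, against 21639515 and 27195479 reads in its group. Its median-ratio size factor, 0.776, was the lowest of the 12 libraries. A link of its values to depth was not tested. POLR2A stood at 258, 288 and 306 CPM in SCR DMSO and at 138, 143 and 139 CPM in siB DMSO. Under AAI it reached 673, 719 and 729 CPM in SCR cells and 266, 220 and 210 CPM in siB cells, so that the siB groups lay below the SCR groups in both treatments. The epithelial markers KRT8, KRT18, KRT19, KRT7, CDH1 and EPCAM were present, and PAX8 and GGT1 marked a kidney tubule origin. Only 4 of 12 proximal tubule markers had a mean of at least 1 CPM: PAX8, GGT1, SLC5A2 and SLC34A1. Of the mature transporters, SLC22A6 and SLC22A8 were at or near 0. SLC5A2 had means of 3.75 and 15.1 CPM in SCR DMSO and SCR AAI, and 5.11 and 16.8 CPM in siB DMSO and siB AAI. Those of SLC34A1 ran from 0.672 to 1.85 CPM. Of markers of other cells, summed endothelial levels were 1.21 to 2.59 CPM in the first 3 groups and 4.34 to 6.06 CPM in siB AAI, with KDR at or near 0, summed leukocyte levels were 60.6 to 98.5 CPM (nearly all CD68, with CD3E at 0), and summed fibroblast levels were 64.2 to 85.4 CPM in DMSO and 41.7 to 55.0 CPM in AAI, with COL3A1 near 0. Summed epithelial markers were 1518 to 1699 CPM in siB DMSO and 1141 to 1192 CPM in siB AAI, with no overlap, against 1389 to 2103 and 1208 to 1656 CPM in SCR DMSO and SCR AAI. The mitochondrial share of reads was 4.12 to 5.01% in siB AAI, the group that enters most of the member calls, and 2.67 to 3.84% in the other libraries. The part of these markers and of the mitochondrial share in the results was not tested. In bulk RNA, fewer cells of a kind and less RNA per cell cannot be told apart.

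Per kb of exon, CYR61 was the most abundant member in SCR DMSO cells, at 380 ± 89.0 CPM per kb (SD, n = 3). CTGF (74.5 ± 19.1), AJUBA (65.6 ± 13.8), ANKRD1 (64.9 ± 12.1) and AMOTL2 (63.0 ± 3.04 CPM per kb) followed, with ranges that overlapped one another. WWTR1 came next at 44.9 ± 14 CPM per kb, then TEAD4 (19.8 ± 3.21), YAP1 (16.9 ± 7.48), TEAD1 (12 ± 6.10) and LATS2 (9.21 ± 1.33 CPM per kb), of which each neighbouring pair overlapped. WWTR1 exceeded YAP1 per kb in all 12 libraries, by 1.93 to 3.18 times. In siB AAI cells the order differed. CYR61 was still the highest, at 101 ± 16.2 CPM per kb, LATS2 at 20.3 ± 3.50 CPM per kb had moved up beside YAP1 at 16.8 ± 1.80 CPM per kb, and ANKRD1 at 9.28 ± 2.57 CPM per kb overlapped TEAD1 at 8.94 ± 0.846 CPM per kb, the lowest. These levels divide by the union of all annotated exons, which is longer than the transcript a cell uses.

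**Figure D1:**
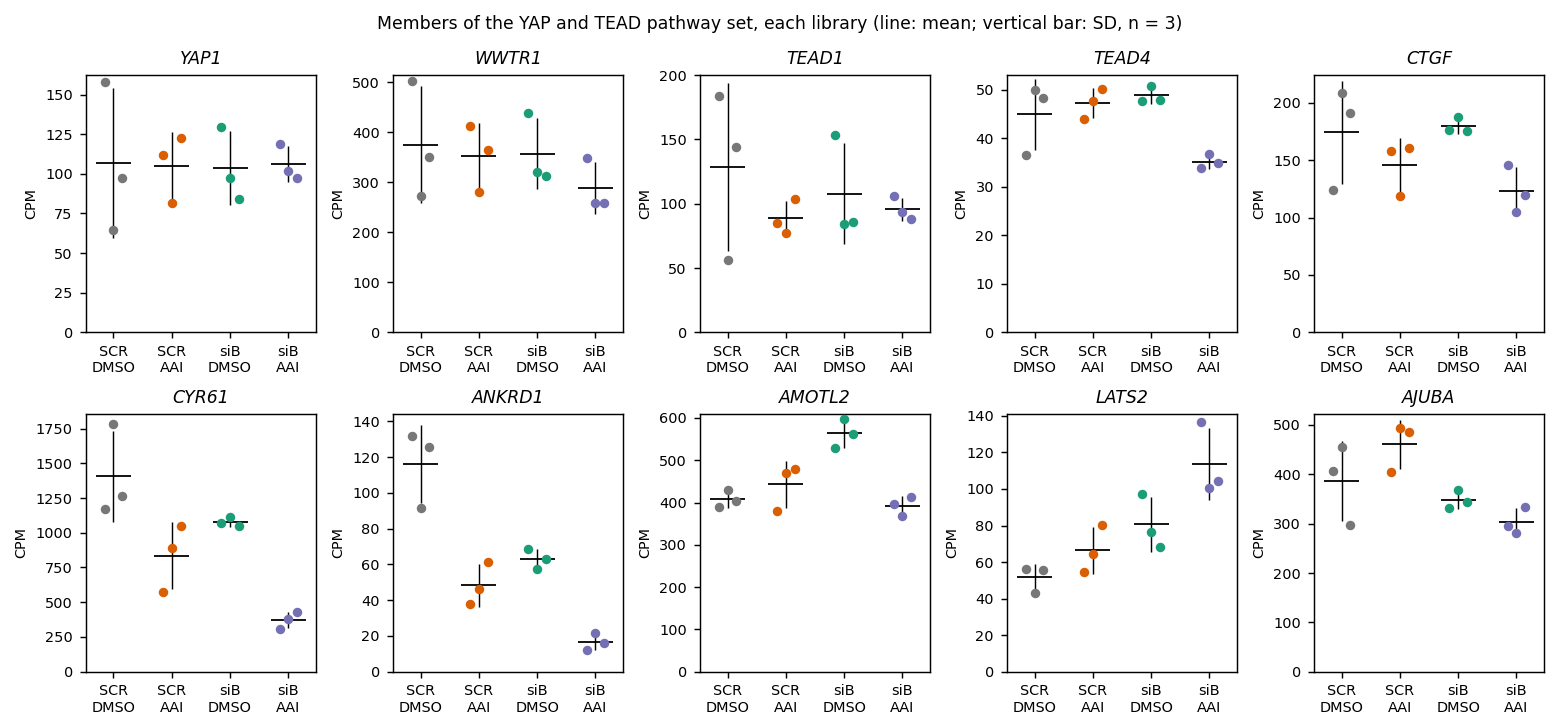
Level of each member in CPM (linear axis from 0) in the 4 groups, with 1 point per library (replicates 1 to 3 from left to right), the mean as a line and the SD as a bar (n = 3). ANKRD1 and CYR61 were lowest in siB AAI, LATS2 was highest there, and YAP1 means were nearly level across groups while its SCR DMSO libraries spread from 64.7 to 158 CPM.

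The AAI comparisons ask how the pathway genes responded to this DNA-damaging toxin in control and in knockdown cells. ANKRD1, a nuclear ankyrin-repeat protein and a widely used readout of YAP activity, was the only member called in both. In SCR cells it stood at 131, 91.3 and 126 CPM in DMSO and at 37.6, 46.0 and 61.4 CPM in AAI. Levels of ANKRD1 in siB cells were 68.7, 57.1 and 62.8 CPM in DMSO and 12.2, 21.4 and 16.2 CPM in AAI. No AAI library reached the lowest DMSO library of the same siRNA, and the siB AAI values rested on 194, 464 and 302 reads. The change with AAI was -1.26 on the log2 scale of CPM + 1 in SCR cells (SE 0.261, adjusted p = 0.0184, limma) and -1.89 in siB cells (SE 0.189, adjusted p = 4.8e-05), or mean levels 2.40 and 3.78 times lower. In SCR cells the call was lost without SCR DMSO replicate 3 (adjusted p = 0.0821), SCR AAI replicate 1 (0.0784) or SCR AAI replicate 2 (0.0786), with changes of -1.19, -1.10 and -1.24. In siB cells the adjusted p stayed at or below 0.000691 over all alternatives tried. The siB AAI and SCR AAI libraries both enter the contrast on which ANKRD1 was selected. Its tests with AAI in siB cells and in SCR cells are therefore not independent of that choice. Groups without overlap, named here and below, were common over all genes tested. The AAI libraries lay wholly below DMSO for 11.5% of genes in SCR cells and 26.6% in siB cells. They lay wholly above for 22.2% and 34.2%.

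CYR61, a secreted matricellular protein that signals through integrins, followed ANKRD1 most closely among the members. It stood at 1171, 1782 and 1264 CPM in SCR cells given DMSO and at 570, 887 and 1048 CPM with AAI. Levels in siB cells were 1067, 1116 and 1052 CPM without and 308, 381 and 427 CPM with AAI. The groups did not overlap in either background, and in siB cells the gap was wide. The change was -1.55 in siB cells (SE 0.125, adjusted p = 1.5e-05, limma), 2.90 times lower. In SCR cells it was -0.77 (SE 0.295, 95% confidence interval -1.45 to -0.09, adjusted p = 0.139) and did not pass, except with all 4 groups in the fit (adjusted p = 0.0271). The difference between the 2 backgrounds, -0.77 (SE 0.326), did not pass either (interaction, adjusted p = 0.321, limma).

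CTGF, the sister gene of CYR61 and a mediator of tubulointerstitial fibrosis, had smaller changes. It stood at 124, 208 and 191 CPM in SCR cells given DMSO and at 158, 119 and 161 CPM with AAI, and these libraries overlapped. Levels of CTGF in siB cells were 176, 187 and 175 CPM in DMSO and 145, 105 and 120 CPM in AAI, with no overlap. CTGF fell by 0.55 on the log2 scale in siB cells (SE 0.128, adjusted p = 0.00561, limma), a call lost with all 4 groups in the fit (adjusted p = 0.0587). In SCR cells the change was -0.23 (95% confidence interval -0.84 to 0.37, adjusted p = 0.606).

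The 3 targets were also compared within each library, where depth and scaling cancel. For each CTGF read there were 9.48, 8.57 and 6.63 CYR61 reads in SCR DMSO and 3.61, 7.47 and 6.52 in SCR AAI. In siB cells the ratio was 6.06, 5.96 and 6.01 in DMSO and 2.12, 3.64 and 3.56 in AAI. ANKRD1 reads per 100 CTGF reads ran from 43.9 to 106 in SCR DMSO, from 23.8 to 38.7 in SCR AAI, from 30.5 to 39.0 in siB DMSO and from 8.42 to 20.4 in siB AAI. The ANKRD1 ratio did not overlap between DMSO and AAI in either background, whereas the CYR61 ratio overlapped in SCR cells and not in siB cells. These ratios are given as a description, with no test.

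**Figure D2:**
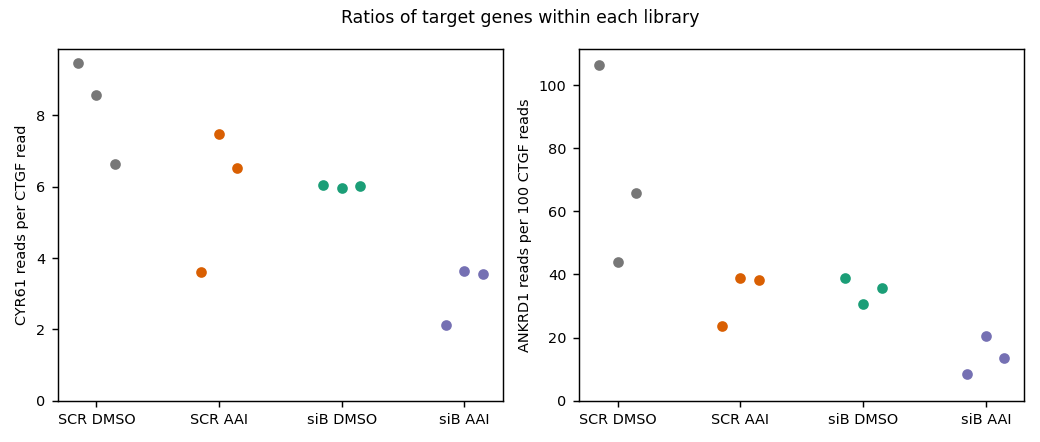
CYR61 reads per CTGF read (left) and ANKRD1 reads per 100 CTGF reads (right) in each library, on linear axes from 0, with the 4 groups side by side and 1 point per library. The siB AAI libraries lay lowest in both panels, at 2.12 to 3.64 and at 8.42 to 20.4.

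Among the genes that feed back on the pathway, LATS2, the kinase that inactivates YAP and TAZ, went the other way. It stood at 56.4, 43.1 and 55.6 CPM in SCR cells given DMSO and at 54.4, 64.4 and 80.2 CPM with AAI, which overlapped. Levels of LATS2 in siB cells were 97.3, 76.3 and 68.4 CPM in DMSO and 136, 101 and 105 CPM in AAI, all above. LATS2 rose by 0.49 on the log2 scale with AAI in siB cells (SE 0.162, adjusted p = 0.0278, limma) and its change was 0.35 in SCR cells (SE 0.238, adjusted p = 0.394). The siB call was lost with all 4 groups in the fit (adjusted p = 0.0780) and without siB DMSO replicate 2 (0.0797), siB DMSO replicate 3 (0.115), siB AAI replicate 1 (0.0838) or siB AAI replicate 3 (0.0519), with changes of 0.36 to 0.55.

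AMOTL2, an angiomotin family scaffold that sequesters YAP at junctions, differed in pattern. It stood at 390, 429 and 405 CPM in SCR cells given DMSO and at 379, 469 and 479 CPM with AAI. Levels of AMOTL2 in siB cells were 530, 598 and 562 CPM in DMSO, above every other group, and 395, 368 and 413 CPM in AAI. AMOTL2 fell by 0.52 with AAI in siB cells (SE 0.0966, adjusted p = 0.00169, limma), and its change in SCR cells was 0.11 (SE 0.195, adjusted p = 0.750), which turned to -0.09 with median-ratio size factors. The interaction was -0.63 (SE 0.187, adjusted p = 0.136) and did not pass.

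AJUBA, a LIM-domain adaptor that binds LATS kinases, stood at 407, 455 and 297 CPM in SCR cells given DMSO and at 404, 494 and 486 CPM with AAI. Levels of AJUBA in siB cells were 331, 368 and 344 CPM in DMSO and 296, 281 and 335 CPM in AAI. The AAI and DMSO libraries overlapped in both backgrounds. Its change was 0.27 in SCR cells (SE 0.229, adjusted p = 0.487, limma) and -0.20 in siB cells (SE 0.103, adjusted p = 0.132), and neither passed.

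The coactivators themselves showed no called change. YAP1 stood at 158, 64.7 and 97.7 CPM in SCR DMSO and 112, 81.4 and 122 CPM in SCR AAI libraries. Its siB libraries held 130, 97.2 and 84.0 CPM in DMSO and 119, 102 and 97.6 CPM in AAI. Group means lay between 104 and 107 CPM. The change with AAI was 0.05 in both backgrounds, with 95% confidence intervals of -0.73 to 0.84 in SCR cells and -0.31 to 0.41 in siB cells (adjusted p = 0.940 and 0.804, limma), and median-ratio size factors turned both signs (-0.15 and -0.06). The SCR interval was the wider. Both fits left out the replicate number, and with it as a block the SE in SCR cells was 0.224 (adjusted p = 0.887, limma).

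WWTR1 stood at 503, 273 and 350 CPM in SCR cells given DMSO and at 412, 282 and 365 CPM with AAI. Levels of WWTR1 in siB cells were 440, 321 and 312 CPM in DMSO and 349, 259 and 258 CPM in AAI. Its libraries overlapped between treatments in both backgrounds. The change was -0.06 in SCR cells (SE 0.278, adjusted p = 0.916, limma) and -0.30 in siB cells (SE 0.163, adjusted p = 0.144). The siB change passed with median-ratio size factors (-0.42, adjusted p = 0.0253) and without siB AAI replicate 1 (-0.45, adjusted p = 0.0418).

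TEAD1 stood at 184, 56.5 and 144 CPM in SCR cells given DMSO and at 85.3, 77.3 and 104 CPM with AAI. Levels of TEAD1 in siB cells were 153, 84.2 and 85.8 CPM in DMSO and 106, 93.2 and 88.0 CPM in AAI. SCR DMSO replicate 2 was the lowest of all 12 libraries for TEAD1, as it was for YAP1. The change in SCR cells was -0.38 (SE 0.416, adjusted p = 0.602, limma), and without SCR DMSO replicate 2 it was -0.88 and passed (adjusted p = 0.0160). With the replicate number as a block, the SE of the SCR change was 0.289 and it did not pass (adjusted p = 0.376). In siB cells it was -0.12 (SE 0.211, adjusted p = 0.663). TEAD1, YAP1 and WWTR1, the 3 longest members, shared this dependence: their median change in SCR cells was -0.06 with all libraries and -0.27 without SCR DMSO replicate 2, against 0.08 and 0.15 for the other 7. In siB cells the order was reversed, at -0.12 for these 3 and -0.52 for the other 7, which include ANKRD1.

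TEAD4, a TEAD factor best known from the trophectoderm of the early embryo, stood at 36.6, 49.95 and 48.3 CPM in SCR cells given DMSO and at 44, 47.7 and 50.2 CPM with AAI. Levels of TEAD4 in siB cells were 47.7, 50.9 and 48.0 CPM in DMSO and 33.8, 36.9 and 34.9 CPM in AAI. The siB AAI libraries were tight and lay below both siB DMSO and SCR AAI. TEAD4 fell by 0.46 with AAI in siB cells (SE 0.111, adjusted p = 0.00677, limma), and the adjusted p stayed at or below 0.0417 over all alternatives tried. In SCR cells the change was 0.08 (SE 0.222, adjusted p = 0.840), which turned to -0.12 with median-ratio size factors.

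The other TEAD genes give this pair its context. TEAD2, which is no member, fell by 1.24 in SCR cells (SE 0.246, adjusted p = 0.0149, limma), from 43.8, 58.1 and 38.7 CPM to 17.2, 20.5 and 19.3 CPM. The SCR call was lost without SCR AAI replicate 1 (adjusted p = 0.0690), 2 (0.0576) or 3 (0.0709). In siB cells TEAD2 fell by 1.48 (SE 0.128, adjusted p = 2.3e-05), from 39.3, 44.8 and 45.9 CPM to 14.3, 15.2 and 15.2 CPM. As a share of the summed CPM per kb of TEAD1 to TEAD4, TEAD4 made up 27.5 to 37.1% in SCR DMSO and 35.6 to 39.6% in siB DMSO, and 45.8 to 48.2% and 42.0 to 44.5% in the AAI groups of SCR and siB cells. TEAD2 made up 22.4 to 31.8% in DMSO libraries and 13.5 to 15% in AAI libraries. The summed TEAD level ran from 55.2 to 61.3 CPM per kb in DMSO libraries, from 40.1 to 47.3 CPM per kb in SCR AAI and from 35.4 to 36.4 CPM per kb in siB AAI, and these ranges did not overlap. The summed level is a description, with no test.

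**Figure D3:**
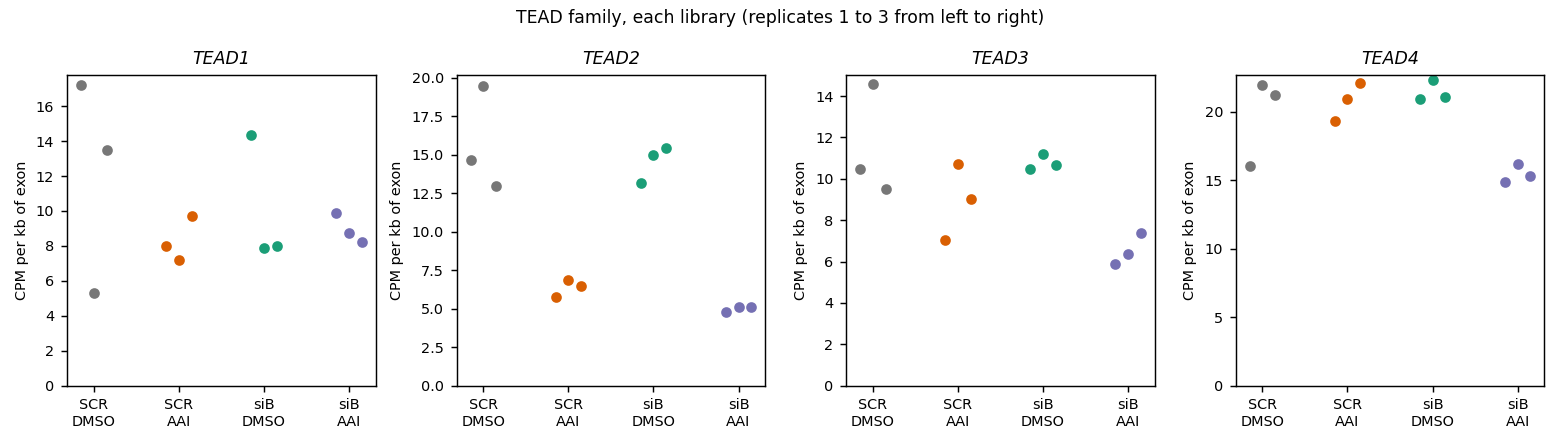
Level of TEAD1, TEAD2, TEAD3 and TEAD4 in CPM per kb of annotated exon (linear axes from 0), with 1 point per library and replicates 1 to 3 from left to right in each group. TEAD2 lay lower in all AAI libraries than in any DMSO library, while TEAD4 was lowest in siB AAI, a range that SCR DMSO replicate 1 entered.

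Counted over the set, 1 of the 10 members was called with AAI in SCR cells (0 raised, 1 lowered: ANKRD1) at an adjusted p under 0.05 in limma. Of all 14228 genes tested, 8.98% were raised and 3.36% lowered, and 1277 against 478 genes became 1064 against 809 with median-ratio size factors. No member was called in SCR cells without SCR DMSO replicate 3, SCR AAI replicate 1 or SCR AAI replicate 2, and 2 were called (TEAD1 added) without SCR DMSO replicate 2. In SCR cells, libraries of the same replicate number varied together, which the main fit leaves out. With the replicate number as a block, ANKRD1 was again the only member called (adjusted p = 0.00791, limma). CYR61 came next, at 0.0696. In siB cells, 1 member was raised (LATS2) and 5 were lowered (ANKRD1, CYR61, CTGF, AMOTL2 and TEAD4), where 30.4% of 14928 genes were raised and 21.8% lowered. ANKRD1 is 1 of these 5 and was selected on its low level in the same siB AAI libraries, so nothing is read from the lowered share, and no test of the set was made. At a change of at least 2-fold as well, 1 member (ANKRD1) was called in SCR cells, against 10.5% of genes, and 2 (ANKRD1 and CYR61) in siB cells, against 19.7%. The median change of the members was -0.0032 in SCR cells and -0.38 in siB cells, beside 0.18 and 0.10 for all genes tested. With median-ratio size factors the median of all genes moved to -0.01 in both. The SCR and siB comparisons use different libraries, but each shares libraries with the knockdown comparisons and is not independent of them.

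**Figure D4:**
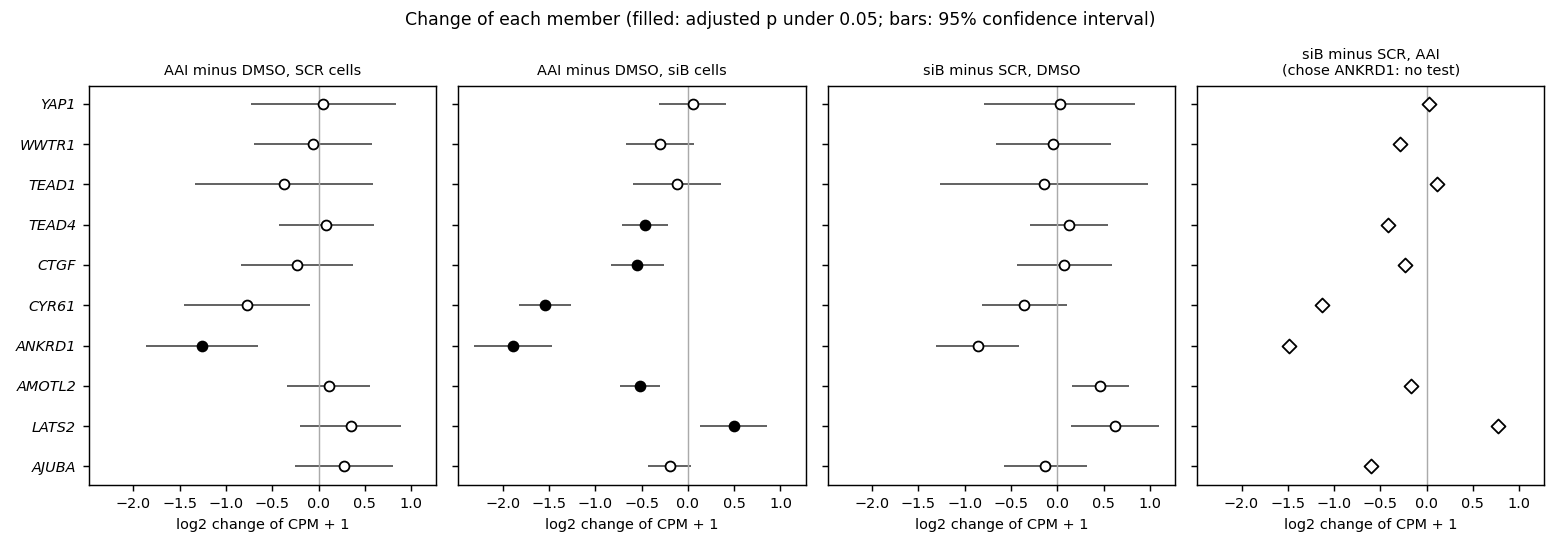
Change of each member on the log2 scale of CPM + 1 in 4 comparisons, with 95% confidence intervals and filled points at an adjusted p under 0.05. The right panel (knockdown under AAI) shows open diamonds with no interval, because that contrast chose ANKRD1. ANKRD1 lay below 0 in all 4 panels, and with AAI 1 member passed in SCR cells and 6 in siB cells.

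Knockdown without AAI asked whether the pathway genes depend on POLR2A in uninjured cells. No gene passed in this comparison: 0% of 13606 genes were raised, 0% lowered and 0% called at 2-fold in limma, with 644 genes at an unadjusted p under 0.05, 0 called by voom and 6 called with all 4 groups in the fit. POLR2A itself, 2.03 times lower with no overlap, had an adjusted p of 0.505, so the comparison could miss changes of that size. POLR2A passed with all 4 groups in the fit (adjusted p = 0.0271). The difference in ANKRD1 was -0.86 (SE 0.189, adjusted p = 0.935, and 0.137 without SCR DMSO replicate 2), and the siB DMSO libraries of 57.1 to 68.7 CPM all lay below the SCR DMSO libraries. The difference was 0.63 for LATS2 (SE 0.199), 0.46 for AMOTL2 (SE 0.129) and -0.36 for CYR61 (SE 0.192), each with an adjusted p of 0.9998 and with no overlap between groups. Without adjustment, 3 members (ANKRD1, AMOTL2 and LATS2) had a p under 0.05, and none was called by voom. In all, 2 members lay wholly above and 2 wholly below the SCR libraries, where 8.28% and 3.64% of genes tested did. YAP1 (0.03), WWTR1 (-0.04), TEAD1 (-0.15), TEAD4 (0.13), CTGF (0.08) and AJUBA (-0.13) overlapped between groups.

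Knockdown under AAI is the contrast that singled out ANKRD1, and its values are given without a test. ANKRD1 was at 37.6 to 61.4 CPM in SCR AAI and at 12.2 to 21.4 CPM in siB AAI, a change of -1.49 on the log2 scale and a mean 2.91 times lower. CYR61 differed by -1.13, with means 2.25 times apart, AJUBA by -0.60 and TEAD4 by -0.42, and in each the siB AAI libraries lay below all SCR AAI libraries. LATS2 differed by 0.77, with siB AAI libraries wholly above. WWTR1 (-0.28), CTGF (-0.24), AMOTL2 (-0.17), TEAD1 (0.11) and YAP1 (0.03) overlapped between groups. Over all 14946 genes tested, the siB AAI libraries lay wholly below SCR AAI for 15.8% and wholly above for 15.1%. In limma, 5.49% of these genes were raised, 3.79% lowered and 3.67% called at 2-fold. No count of members is set beside these shares. Replicate numbers paired the libraries in this comparison, and the replicate block moved the count over all genes from 1387 to 4325. In that block fit of 6 libraries, member SEs lay between 0.142 and 0.158, and the lowest adjusted p was 2.1e-40 (limma). Its count is therefore not read as the effect of pairing. With no block, the count was 213 without SCR AAI replicate 3, 2104 without SCR AAI replicate 1 and 689 to 836 without any other library.

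The interaction, the change with AAI in siB cells minus that in SCR cells, was called for 1.46% of 15325 genes in the positive and 0.157% in the negative direction, and for no member in limma, by voom or with the replicate block. Without adjustment, 3 members (CYR61, AMOTL2 and TEAD4) had a p under 0.05. Over all genes 247 were called in limma and 0 by voom, where 1548 had an unadjusted p under 0.05. The member values were -0.77 for CYR61, -0.63 for AMOTL2, -0.63 for ANKRD1, -0.55 for TEAD4, -0.47 for AJUBA, -0.32 for CTGF and -0.24 for WWTR1, then 0.26 for TEAD1, 0.15 for LATS2 and -0.0018 for YAP1. A larger fall in siB cells was thus not shown for any member, since a call in one background and not in the other is no test of the difference.

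The wider pathway was taken from 3 lists: 25 Hippo kinases, scaffolds and upstream regulators, 6 other TEAD and VGLL genes, and 17 other genes of a published YAP and TAZ target signature. In SCR cells 3 of the 44 list genes tested were called with AAI, or 6.82%, below the 12.3% of all genes tested. One Hippo gene of 24 tested was raised, TAOK2, a kinase that activates the cascade (86.7, 103 and 61.4 CPM to 167, 156 and 140 CPM, 0.90, SE 0.242, adjusted p = 0.0481, limma). The other two were TEAD2 and IGFBP3, a secreted binding protein of insulin-like growth factors and 1 of 16 signature targets tested (71.3, 120 and 53.9 CPM to 34.6, 19.2 and 25.1 CPM, -1.56, SE 0.350, adjusted p = 0.0252). The TAOK2 call held only narrowly: it was lost under 6 alternatives that kept all libraries (0.0511 with a pseudocount of 0.1 to 0.178 with median-ratio size factors) and without any 1 library except SCR DMSO replicate 2 (0.0684 to 0.165). It held with the replicate block, with all 4 groups in the fit and in CPM without the transcript AC010970.2. The IGFBP3 call was lost without SCR AAI replicate 2 (0.105) or 3 (0.102). With the replicate block it held, as did the TEAD2 call. With the replicate block, 2997 genes in all and 11 of the lists were called in SCR cells, 5 raised and 6 lowered, or 25% beside 21.1% of all genes. Without SCR DMSO replicate 2, 16 of the lists were called, or 36.4% beside 22.2%.

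In siB cells 24 of 45 list genes tested were called with AAI, or 53.3%, near the 52.2% of all genes tested. Of the 25 Hippo genes, 7 rose (28%) and 5 fell (20%), also near the 30.4% and 21.8% of all genes. WTIP, an AJUBA family adaptor, rose from 18.4, 21.1 and 19.2 CPM to 59.4, 35.3 and 43.2 CPM (1.16, SE 0.184, adjusted p = 0.000705, limma). TAOK1, a kinase of the same family as TAOK2, rose from 120, 61.2 and 61.9 CPM to 157, 143 and 111 CPM (0.81, SE 0.247, adjusted p = 0.0210), with groups that overlapped. The TAOK1 call was lost with all 4 groups in the fit (0.195) and without siB DMSO replicate 2 (0.0673), siB DMSO replicate 3 (0.0774), siB AAI replicate 1 (0.0755) or siB AAI replicate 2 (0.0659). Of the other TEAD and VGLL genes, 4 were tested, of which TEAD2, TEAD3 (-0.70) and VGLL4 (-0.50), a TEAD-bound repressor, fell and VGLL3 rose (1.02, at a mean of 4.22 CPM). TEAD3, VGLL4 and VGLL3 were chosen after their values were seen.

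Of the 16 signature targets tested, 2 rose (12.5%) and 6 fell (37.5%) in siB cells, beside 30.4% and 21.8% of all genes. F3, tissue factor, fell from 39.1, 38.6 and 36.0 CPM to 16.3, 17.0 and 16.7 CPM (-1.14, SE 0.122, adjusted p = 7.2e-05, limma), with no overlap. TGFB2, a transforming growth factor beta ligand, fell from 233, 145 and 143 CPM to 110, 62.9 and 54.6 CPM (-1.22, SE 0.264, adjusted p = 0.00391), a call lost with all 4 groups in the fit (0.0776). NT5E, the ectonucleotidase CD73, rose from 16.8, 13.4 and 15.2 CPM to 20.2, 40.0 and 30.4 CPM (0.91, SE 0.226, adjusted p = 0.00798), a call also lost in that fit (0.0903). The median change of the tested targets was -0.13 in siB cells and -0.45 in SCR cells, beside 0.10 and 0.18 for all genes. In siB cells 8 of the 16 did not pass, and in SCR cells 15 of 16 did not. Under AAI, in the contrast that chose ANKRD1, knockdown and control cells differed by -0.78 for F3 and by 0.78 for IGFBP3, and DCHS1, an atypical cadherin at a mean of 1.24 CPM, by 1.21. These 3 values are a description, with no test.

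**Figure D5:**
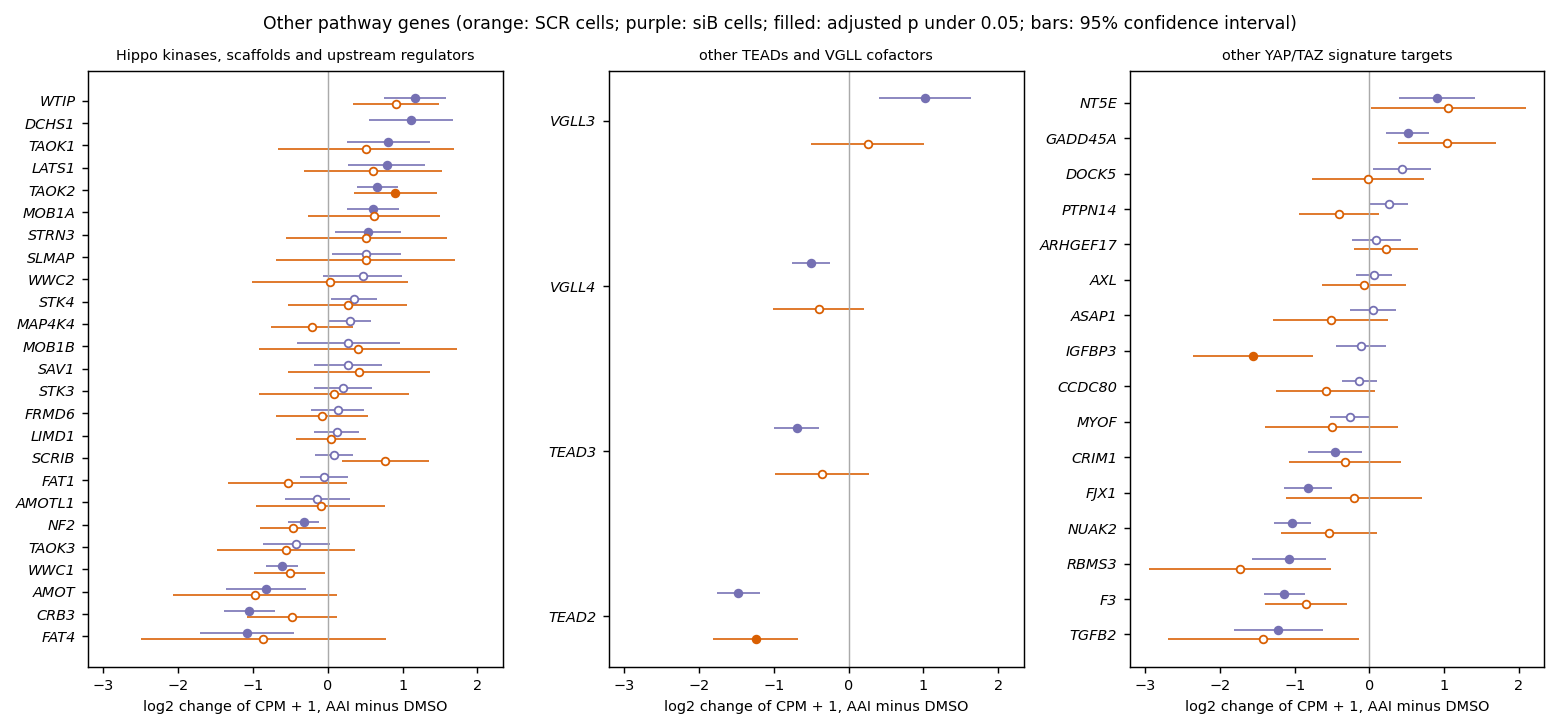
Change with AAI on the log2 scale of CPM + 1 for the other pathway genes tested, in SCR (orange) and siB (purple) cells, with 95% confidence intervals and filled points at an adjusted p under 0.05, ordered by the change in siB cells. Intervals were wider in SCR cells, where 3 genes passed, than in siB cells, where 24 did.

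Across the 12 libraries, the genes whose log2(CPM + 1) followed ANKRD1 most closely among 11580 with a mean of at least 5 CPM were TXNIP (Pearson r = 0.972), PRKCE (0.971), KNSTRN (0.962), CPPED1 (0.960) and the signature target F3 (0.957). All 5 were lowest in the siB AAI libraries, as ANKRD1 was. Ranking by likeness to ANKRD1, itself selected on its low level in those libraries, favours such genes, so nothing is read from this. Among the members, r with ANKRD1 was 0.93 for CYR61, 0.64 for TEAD4, 0.52 for CTGF and -0.77 for LATS2, and 0.00 for YAP1. YAP1, WWTR1 and TEAD1, the long members, had r of 0.76 to 0.84 among themselves. These values describe 12 libraries that fall into 4 groups, so they carry the group differences and the shared depth.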

How the data were processed

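Bulk poly(A) RNA sequencing of HK-2 cells was examined in 12 libraries, with group and replicate taken from the sample titles, since a treatment field read DMSO for every sample. The authors' methods state alignment of reads to hg38 and counting per gene on the BioJupies platform; the aligner and its version are not given in the sources used here. The authors deposited log10 values, log10 of CPM plus 1, for 35238 rows. CPM and whole reads were recovered from them (100% of low values whole within 0.1 read). Counts of 3 reads, the limit that 0 reads allow, corresponded to 0.0701 to 0.189 CPM, for counting error only.

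Changes were tested in R 4.3.3 with limma 3.58.1 (trended eBayes) on log2(CPM + 1), with a separate fit for each pair of groups. Genes entered a fit when 3 or more of its libraries reached 1 CPM, and the interaction was fitted over all 4 groups. Adjusted p-values are Benjamini-Hochberg over all genes tested, called under 0.05. On that scale a change of a low gene is understated. The fit for AAI in SCR cells was run on simulated reads with the same dispersion for every gene. The simulation held no outlying library and no shared replicate effect, and the other fits were not simulated. Figures and tables used Python 3.11.15, spans GENCODE 44 and promoters the RefSeq table.

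Named genes were POLR2A, the 10 members, up to 3 genes each way per comparison with the largest called change and a mean CPM of at least 5 from the pathway lists, and the 5 genes most correlated with ANKRD1. The members and lists were chosen with earlier results of these data known. Alternatives were leaving out each library, voom on whole reads, an untrended eBayes, median-ratio size factors, CPM without the transcript AC010970.2 (an unequal share of the libraries), 1 fit over all 4 groups, the replicate number as a block, a pseudocount of 0.1, and a filter that was either dropped or set to a mean of 5 CPM.

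Replicate numbers come from the sample titles, and nothing in the labels says what they share. Over 15325 genes, the deviation of each library from the mean of its group was correlated between libraries of 1 number, at 0.34 to 0.47 for AAI in SCR cells and 0.29 to 0.61 for knockdown under AAI, at 0.03 to 0.21 for AAI in siB cells and at -0.19 to 0.73 for knockdown in DMSO, so pairing held for the first 2 comparisons.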

Additional observations from a re-analysis of the deposited data

How the results depend on the processing

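Of 1045 values of single genes recomputed under an alternative, 944 kept their direction and their side of the threshold, 57 lost a call, 7 gained one and 37 turned sign. The tally includes the members in knockdown under AAI, the contrast that chose the set, so it lends no support to their changes there. No member had fewer than 194 reads in a library. Intervals were set by 3 libraries a group, and SCR DMSO replicate 2 alone moved the call of TEAD1.

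With AAI in SCR cells, the genes called moved from 1755 to 769 (mean CPM of at least 5), 4094 (all 4 groups in the fit) and 2997 (replicate block), and to 887 to 3156 with a library left out. The members called moved from 1 to 2 with all 4 groups, and to 0 to 2 with a library left out. The pathway list genes called moved from 3 to 5 with median-ratio size factors and without AC010970.2, 10 with all 4 groups, 11 with the replicate block, and 0 to 16 with a library left out. With AAI in siB cells, 24 pathway list genes became 10 with all 4 groups. For knockdown under AAI, 1387 genes became 710 (mean CPM of at least 5) and 4325 (replicate block), and 213 to 2104 with a library left out. That contrast chose the set, so no count of members called is given for it. Its 3 pathway list genes became 1 (mean CPM of at least 5), 15 with the replicate block and 0 to 7 with a library left out. The 3 were 6.67% of the list genes beside 9.28% of all genes, and the 15 were 33.3% beside 28.9%. The block fit behind the 15 had a lowest adjusted p of 2.1e-40 (limma, 6 libraries), so nothing is read from its counts. For knockdown in DMSO, 0 genes became 6 with all 4 groups. For the interaction, 247 genes became 46 (pseudocount 0.1), 625 (no filter), 0 (mean CPM of at least 5 and voom) and 389 (replicate block), and 81 to 1010 with a library left out. Pathway list genes went from 0 to 1 with no filter and with the replicate block, and 0 to 3 with a library left out. The cause was not tested. The replicate block added WWTR1 with AAI in siB cells (adjusted p = 0.020), and changed no other call of a member outside knockdown under AAI. Where replicate numbers did not pair the libraries, it gave 8600 genes against 7794 with AAI in siB cells and 0 for knockdown in DMSO, and 4 of 6 libraries correlated best with their own number in each.

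Signs that turned with median-ratio size factors were YAP1 (-0.15), TEAD4 (-0.12) and AMOTL2 (-0.092) with AAI in SCR cells, YAP1 (-0.062) with AAI in siB cells, YAP1 (-0.054) and CTGF (-0.0060) for knockdown in DMSO, and YAP1 (0.086) in the interaction. With a library left out, changes with AAI in SCR cells ran from -0.26 to 0.38 (YAP1), -0.27 to 0.17 (WWTR1) and -0.055 to 0.16 (TEAD4). Those in siB cells ran from -0.087 to 0.22 (YAP1) and -0.26 to 0.16 (TEAD1), and YAP1 for knockdown under AAI from -0.15 to 0.14. For knockdown in DMSO they ran from -0.28 to 0.35 (YAP1), -0.25 to 0.19 (WWTR1), -0.65 to 0.19 (TEAD1), -0.0083 to 0.21 (TEAD4), -0.15 to 0.22 (CTGF) and -0.31 to 0.00028 (AJUBA). In the interaction they ran from -0.33 to 0.31 (YAP1) and -0.080 to 0.76 (TEAD1).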
